A study of Mus musculus with 21 samples.

Results

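The change of gene expression in the sciatic nerve of Pmp22 transgenic mice between postnatal day 4 (P4) and day 60 (P60) was measured on 5 of the 21 microarrays of a larger study. The arrays were those labelled P4 TG, with 3 arrays, and P60 TG, with 2 arrays, where TG stands for mice carrying a Pmp22 transgene. Each array held RNA from the pooled nerves of 4 to 7 mice. The labels name the transgene and give neither its promoter nor its copy number. The other arrays came from wild-type mice of mixed background (WT, 3 arrays at each age), from mice homozygously null for Pmp22 (KO, 3 at P4 and 2 at P60) and from Trembler mice (TR, 3 at P4 and 2 at P60), whose Pmp22 gene carries a point mutation. They served to estimate the spread between arrays and to ask where the change with age differed from that of the TG nerve. All 12422 probe sets other than control spots were considered, and 10994 that rose above a floor on at least 2 of the 21 arrays were tested.

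Peripheral nerve matures after birth as Schwann cells leave the cell cycle, take up a one-to-one relation with large axons and wrap them in myelin. The transcription factor Pou3f1 (also called Oct6 or SCIP) marks the promyelinating stage and is normally lost as myelination is completed, while Egr2 (Krox20) drives the genes of myelin proteins and lipids and stays on in the adult. Pmp22 encodes a tetraspan membrane protein of compact myelin, and extra copies of the gene cause the demyelinating neuropathy Charcot-Marie-Tooth disease type 1A in people. A sciatic nerve also holds fibroblasts, perineurial cells, endothelium, immune cells and fat of the epineurium, so a bulk value cannot tell fewer cells of a type from less RNA per cell.

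The values were model-based expression indices on a linear scale, and changes are given as differences of log2 values after values below 54.7 had been raised to that floor. The TG arrays had median indices from 182 to 202, and the number of arrays limits the precision. Pearson's r taken over probe sets, as a description, was 0.969 between the 2 P60 TG arrays and ranged from 0.947 to 0.984 among the 3 P4 TG arrays. No other array was scanned on the day of the 2 P60 TG arrays, so scan day and group cannot be told apart for that group. They were also processed on fluidics station 2, while the P4 TG arrays were on station 1. The 2 P60 pools differed from each other: Xist, which is expressed from the inactive X chromosome of females, had indices of 144 and 1476, and 25 of the 27 tested genes of fibroblasts, epineurium and perineurium were higher on the first array, against 45.7% of all tested probe sets. Genes that define Schwann cells were high on all 5 arrays, with indices of 4295, 3926 and 4729 at P4 and 4854 and 5151 at P60 for Mbp, a major myelin protein, and of 1381, 1404 and 1709 and 1185 and 1171 for Sox10, the lineage factor of neural crest glia.

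Pmp22 itself was measured by 2 probe sets. On the bright one (102395_at) its index was 6676, 6606 and 6803 on the P4 TG arrays and 7388 and 8553 on the P60 TG arrays, and the WT arrays spanned 6732 to 7682 over both ages. Both P60 TG values lay above all 3 P4 TG values. The change with age of 0.25 ± 0.12 (SE, adjusted p = 0.217) did not pass the threshold of 0.05 used throughout. On this bright probe set the KO arrays still had mean indices of 5131 at P4 and 5239 at P60. Its value is thus not a measure of Pmp22 dose alone. The TG minus WT difference was -0.10 at P4 and 0.21 at P60, and limma called neither (adjusted p = 0.997 and 0.461). On the dim probe set (161442_at) the indices were 61.4, 80.9 and 122 at P4 and 119 and 97.8 at P60, with overlapping groups and a change of 0.35 ± 0.23 (SE, adjusted p = 0.381).

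Between P4 and P60, 1216 of the 10994 tested probe sets changed in TG nerve. Of these, 808 were higher at P60, 7.35% of those tested, and 408 were lower, 3.71%. The counts of the gene lists below are to be read beside these shares. The arrays of the 2 ages did not overlap for any of the 1216, which was also so for 43.2% of all tested probe sets. The median change over all tested probe sets was 0.01. Among probe sets with 1 gene name the largest rises were those of Mup5, Rasd1, Thrsp, Cyp2e1, Aldh1a1 and Fbp1, and the largest falls those of Igf2, Cdk1, Hmgb2, Aurkb, Ednrb and Mki67. Mup5, Rasd1, Thrsp and Aldh1a1 lay below the floor on all P4 arrays and Ednrb on both P60 arrays, so their sizes are lower bounds and their order is set in part by the floor. With only 2 arrays at P60 each of them weighed heavily on the count, which was 565 without the first P60 TG array and 607 without the second. It was 642 with scan day as a random block and 740 with fluidics station as a fixed block.

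**Figure D1:**
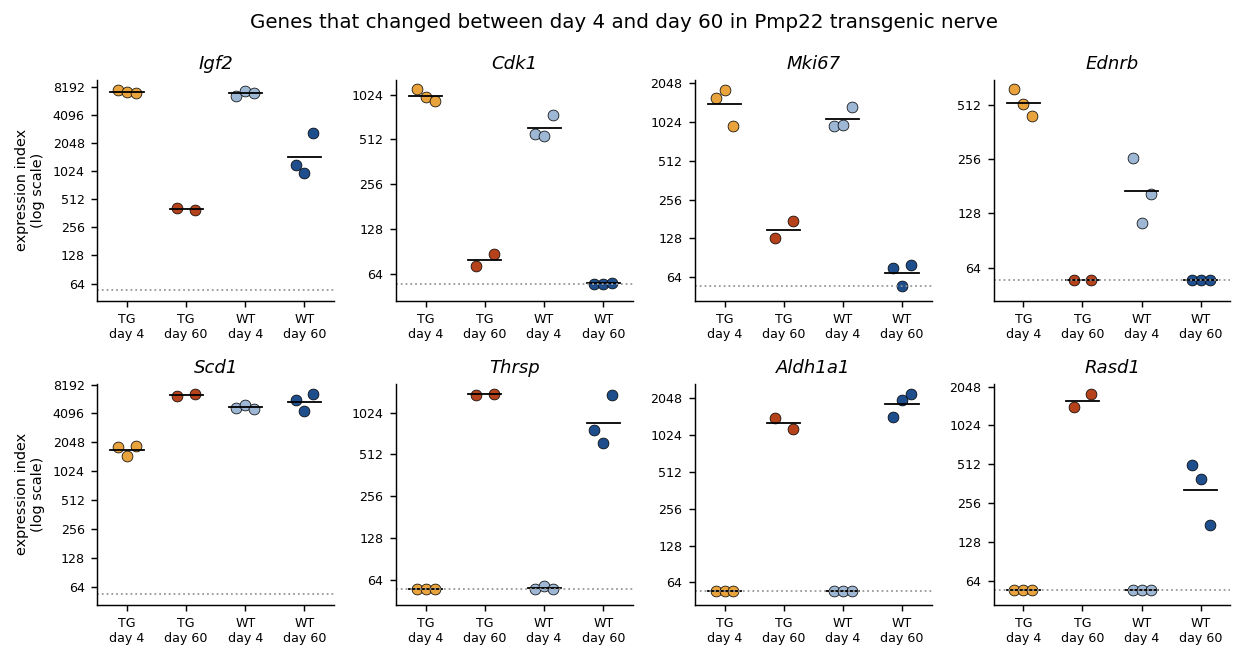
Expression index of 8 genes on each TG and WT array at P4 (day 4) and P60 (day 60), on a log scale. Points are arrays drawn at no less than the floor (dotted line at 54.7) and bars are means of the log2 values; Igf2 stood at 416 and 396 on the P60 TG arrays against 1177, 969.8 and 2598 on the P60 WT arrays, and Scd1 started lower at P4 in TG than in WT.

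Genes of the cell cycle fell together. Of 79 tested genes of DNA replication and mitosis, 41 fell in TG nerve and 0 rose, with a median change of -0.99, and 40 fell and 1 rose in WT nerve, where 10.5% of all probe sets rose and 4.39% fell. Of the genes that fell, 33 fell in both. Cdk1 (100128_at), the kinase that drives entry into mitosis, had indices of 1113, 988 and 925 at P4 and 71.9 and 86.6 at P60, and it fell by 3.67 ± 0.30 (SE, adjusted p = 7.08e-07) on the log2 scale. Mki67 (99457_at), the Ki-67 proliferation antigen, stood at 1577, 1829 and 957 on the P4 arrays and 129 and 174 on the P60 arrays. In both genes every P4 array stood far above both P60 arrays. A dim second probe set of Mki67 had a change of -0.29 (adjusted p = 0.573). Aurkb, a kinase of chromosome segregation, fell by 3.31 ± 0.34 (SE, adjusted p = 8.21e-06). Hmgb2, a chromatin protein abundant in dividing cells, fell by 3.40 ± 0.34 (SE, adjusted p = 4.78e-06).

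Further members followed the same course. Ccnb2, the cyclin B2 partner of Cdk1, had indices of 914, 941 and 820.3 at P4 and 144 and 157 at P60. Prc1, which bundles microtubules of the dividing spindle, fell from 507, 543 and 285 to 24.0 and 47.7, both P60 values below the floor, so its fall was at least 2.97 (adjusted p = 0.000102). Top2a, the topoisomerase that untangles sister chromosomes, likewise lay below the floor on both P60 arrays, with indices of 38.8 and 37.5 after 450.2, 562 and 219 at P4. Among the P4 arrays the third had the lowest value for Mki67, Hmgb2, Prc1, Top2a and Aurkb. Ccnd1, the cyclin of the G1 phase, had indices of 3174, 3172 and 2369.8 at P4 and 1612 and 1469 at P60, and its fall of 0.90 ± 0.22 (SE, adjusted p = 0.0144) was no longer called without the first P4 array (adjusted p = 0.0501), the first P60 array (0.0674) or the second (0.119); a second probe set of it had a change of -0.23 (adjusted p = 0.508). The count of fallen members was 23 without the first P60 array, 25 without the second and 26 with fluidics station as a block.

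**Figure D2:**
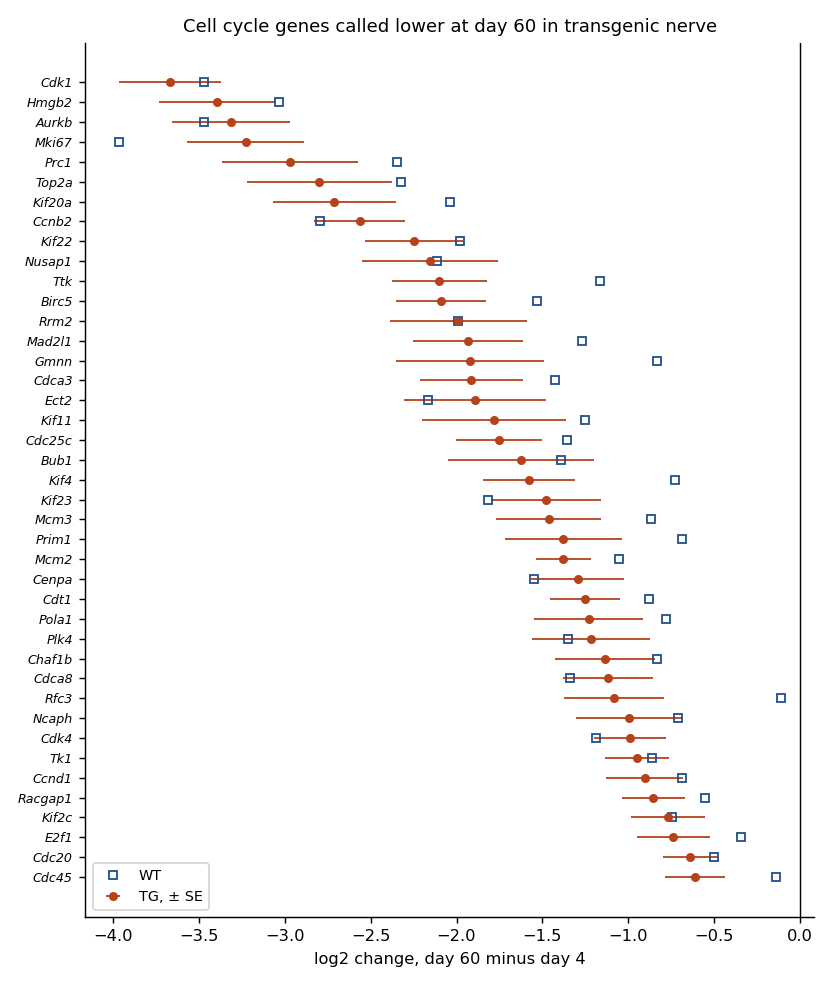
Log2 change from P4 to P60 of the 41 cell cycle genes called lower in TG nerve (filled points with standard errors, n = 3 and 2 arrays) and of the same genes in WT nerve (open squares, no error drawn). TG changes ran from -3.67 for Cdk1 to -0.61 for Cdc45, and all 41 genes also had a change below 0 in WT.

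The promoters of genes that peak in late cell cycle often carry a CCAAT box, bound by the factor NF-Y, and the cell cycle genes homology region, whose core TTTGAA is bound by the DREAM and MuvB complexes that repress these genes in resting cells. RefSeq start sites (build GRCm38.p6) gave 38 promoters of 300 bases, from 250 before to 50 after the start, for 36 of the 41 fallen genes. On either strand TTTGAA was found in 22 of these, 57.9%, and in 17.9% of all 32851 promoters in the table. CCAAT was found in 27, 71.1%, and in 37.4% of all. Among 40 promoters of 30 tested members that were not called, TTTGAA was found in 11, 27.5%, and CCAAT in 24, 60.0%. A match is a run of letters, not a measured site. The 150 bases upstream of the start are shown for Cdk1, Top2a, Prc1, Mki67, Hmgb2 and Ccnb2, which are described above, with both motifs in capitals on either strand (ATTGG and TTCAAA are the reverse complements).
Cdk1: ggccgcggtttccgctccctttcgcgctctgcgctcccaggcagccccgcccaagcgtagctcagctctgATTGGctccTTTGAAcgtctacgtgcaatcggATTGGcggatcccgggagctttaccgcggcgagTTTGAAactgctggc
Top2a: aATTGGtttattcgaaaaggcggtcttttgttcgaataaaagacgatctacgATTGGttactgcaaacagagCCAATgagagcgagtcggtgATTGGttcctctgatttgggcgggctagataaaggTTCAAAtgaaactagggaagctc
Prc1: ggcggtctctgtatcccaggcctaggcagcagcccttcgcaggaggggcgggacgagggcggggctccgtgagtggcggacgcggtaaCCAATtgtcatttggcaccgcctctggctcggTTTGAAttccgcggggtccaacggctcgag
Mki67: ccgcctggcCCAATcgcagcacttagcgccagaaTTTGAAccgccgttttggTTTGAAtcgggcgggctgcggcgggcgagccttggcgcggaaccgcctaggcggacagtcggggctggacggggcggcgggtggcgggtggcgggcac
Hmgb2: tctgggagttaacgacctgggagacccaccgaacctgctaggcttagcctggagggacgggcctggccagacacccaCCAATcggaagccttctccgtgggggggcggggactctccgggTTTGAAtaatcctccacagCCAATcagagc
Ccnb2: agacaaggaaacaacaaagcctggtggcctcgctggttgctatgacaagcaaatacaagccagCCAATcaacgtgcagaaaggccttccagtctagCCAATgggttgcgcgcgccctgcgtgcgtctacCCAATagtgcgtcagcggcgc
These stretches lie at chr10:69352913-69353062 on the minus strand (Cdk1), chr11:99024190-99024339 on the minus strand (Top2a), chr7:80294326-80294475 on the plus strand (Prc1), chr7:135716380-135716529 on the minus strand (Mki67), chr8:57511693-57511842 on the plus strand (Hmgb2) and chr9:70421555-70421704 on the minus strand (Ccnb2). The Ccnb2 stretch holds CCAAT and no TTTGAA. That of the other annotated start of Prc1, at chr7:80294301-80294450 on the plus strand, holds CCAAT and ends within the TTTGAA shown for Prc1. The 50 bases after each start were searched for the counts and are not shown. The TTTGAA nearest to the start began 15 bases before it in Cdk1, 23 in Top2a, 30 in Prc1, 98 in Mki67 and 30 in Hmgb2.

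Igf2, Mest, Dlk1 and other growth genes of the fetus and newborn fell. Of the 22 tested imprinted and embryonic growth genes 7 fell and 0 rose in TG nerve, with a median of -0.33, and 8 fell and 1 rose in WT nerve. Igf2 (98623_g_at), the fetal insulin-like growth factor, had indices of 7588, 7103 and 6924 at P4 and 416 and 396 at P60. The values within each age were close together, and the fall of 4.15 ± 0.29 (SE, adjusted p = 1.24e-07) on the log2 scale was the largest of the called falls of named probe sets. Mest, a paternally expressed gene of growing mesoderm, fell by 3.03 ± 0.42 (SE, adjusted p = 0.000149). Dlk1, a Notch-like protein of precursor cells, fell by 2.92 ± 0.40 (SE, adjusted p = 0.000143), from 1081, 1189 and 1605 to 183 and 154. Meg3, a maternally expressed non-coding RNA of the same cluster as Dlk1, fell by 2.45 ± 0.33 (SE, adjusted p = 0.000109) on its named probe set, while another probe set of Meg3 had a change of 0.06 (adjusted p = 0.983). Peg3 (101451_at), a zinc finger protein, and Cdkn1c, an inhibitor of cyclin-dependent kinases, fell too, with changes of -2.83 and -1.89, while the brightest probe set of Peg3 (96765_at), which stands for it in the list, changed by -1.42 (adjusted p = 2.98e-05).

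Myelin protein genes were bright at P4, and 1 passed the test at P60. Of 8 tested members 1 rose in TG nerve, and the median was 0.23. That member was Mal (99089_at), a proteolipid of myelin and epithelial membranes, with indices of 1114, 1059 and 1165 at P4 and 1782 and 2259.9 at P60. Its call was at the edge of the threshold (adjusted p = 0.0492) and was lost without any 1 of the 5 TG arrays, with adjusted p from 0.0835 to 0.315. Mag, an adhesion protein of the innermost myelin layer, had overlapping values of 308, 259.9 and 499 at P4 and 257 and 406 at P60. Mbp had a change of 0.22 ± 0.13 (SE, adjusted p = 0.331) on its bright probe set. A dim probe set of Mbp (96310_at) was called higher, by 1.42 ± 0.18 (SE, adjusted p = 6.75e-05), from a mean index of 62.7 to 168.

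Among 23 tested transcription regulators of Schwann cells 2 rose and 2 fell in TG nerve. Over all tested probe sets 7.35% rose and 3.71% fell. Egr2 (102661_at), the activator of myelin genes, rose from 3487, 3174 and 2061 at P4 to 5082 and 6414 at P60, a change of 1.01 ± 0.20 (SE, adjusted p = 0.00304). Nab1, which binds Egr proteins and adjusts their activity, rose by 0.82 ± 0.19 (SE, adjusted p = 0.00891), from 1321, 1127 and 930.0 to 2007 and 1936. Ets1, a factor of endothelium, neural crest and lymphoid cells, fell by 2.17 ± 0.53 (SE, adjusted p = 0.0132), while another, dim probe set of it had a change of 0.10 (adjusted p = 0.494). Id2, which blocks helix-loop-helix activators, fell by 0.74 ± 0.16 (SE, adjusted p = 0.00516), from 2886, 3008 and 2198 to 1749 and 1462. The 2 ages did not overlap in any of these 4 genes, which was so for all 1216 called probe sets and for 43.2% of all tested ones. Without the second P60 array the adjusted p was 0.063 for Egr2, 0.0575 for Nab1, 0.144 for Ets1 and 0.0897 for Id2, and without the first it was 0.0775 for Nab1. With station as a block 1 member rose and 1 fell, and with scan day as a random block 1 fell. Pou3f1, the promyelinating factor, was not called: its indices were 1406, 1146 and 998 at P4 and 1263 and 2153 at P60. Sox2, which holds Schwann cells immature, stood at 1399, 1402 and 1217 and 1941 and 2155 (adjusted p = 0.171).

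Of 27 tested genes of immature, non-myelinating or injured Schwann cells 4 fell and 2 rose, with a median of -0.06. Ednrb (103550_at), the endothelin B receptor that delays Schwann cell development, had indices of 622, 512 and 442 at P4 and 34.8 and 46.9 at P60, both P60 values below the floor. Its fall was therefore at least 3.25 on the log2 scale (adjusted p = 9.38e-06). Sox11, a factor of neuronal and glial precursors, also ended below the floor, at 25.3 and 21.9 after 155, 199 and 93.0, and a dim second probe set of it had a change of -0.06 (adjusted p = 0.791). The other 2 that fell were Mdk, a growth factor of developing tissue (-0.82), and Ccl2, a chemokine (-1.27); the call of Ccl2 was lost without any 1 P4 array or the second P60 array, with adjusted p from 0.062 to 0.396, and that of Mdk without the third P4 array (0.0572), the first P60 array (0.124) or the second (0.0553). Outside the list Basp1, a membrane protein of growing axons, fell by 2.99 ± 0.48 (SE, adjusted p = 0.000628) on 1 probe set (95673_s_at), while a brighter one (95674_r_at) had a change of -0.45 (adjusted p = 0.153). S100b is counted in this list although it is a calcium-binding protein of mature Schwann cells, so its rise is not read as one of immature cells. It rose from 359, 320.3 and 735 to 1620.4 and 1661, a change of 1.90 ± 0.30 (SE, adjusted p = 0.000555). The other member that rose, Gfra1, a receptor for GDNF family ligands, was chosen for mention after its value was seen (0.86), and 1 member was called higher without the first or the third P4 array or either P60 array. Ncam1, an adhesion molecule of immature and non-myelinating Schwann cells, stood at 433, 569 and 257 at P4 and 189 and 250.4 at P60 (adjusted p = 0.118). Its lowest P4 value was close to the higher P60 value.

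**Figure D3:**
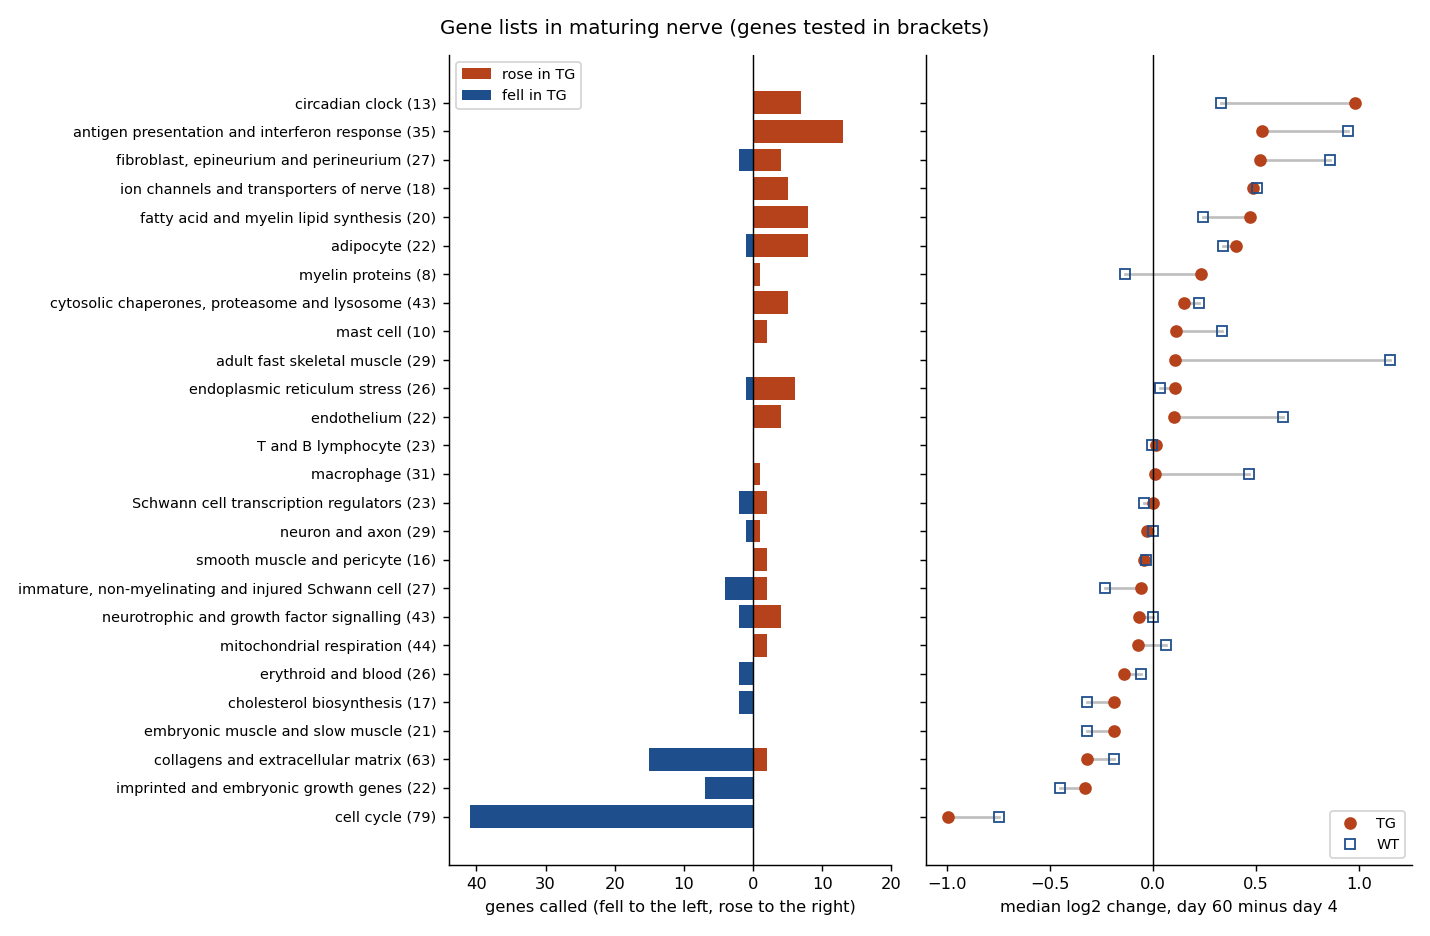
Left, number of genes of each list called higher (right of 0) or lower (left of 0) at P60 in TG nerve; right, median log2 change of the list in TG (points) and WT (open squares). Cell cycle genes had the lowest medians, -0.99 in TG and -0.75 in WT, and adult fast skeletal muscle the widest gap, 0.11 against 1.15; the former was -0.21 without the first P4 TG array.

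Genes of fatty acid and myelin lipid synthesis rose. Of 20 tested members 8 rose and 0 fell in TG nerve, with a median of 0.47, and 6 rose and 1 fell in WT nerve, with 4 risen in both. The summed index of the list was 23043, 22268 and 22258 on the P4 TG arrays and 35439 and 38613 on the P60 TG arrays, against 36178, 34786 and 36407 on the P4 WT arrays and 39409, 39689 and 43422 on the P60 WT arrays. The P4 TG sums were the lowest of the 4 groups. Scd1 (94056_at), the desaturase that makes oleic acid, had indices of 1835, 1485 and 1889 at P4 and 6176 and 6538 at P60, a change of 1.88 ± 0.15 (SE, adjusted p = 7.08e-07). A second probe set of Scd1 rose by 2.76, and another, dim one had a change of -0.96 (adjusted p = 0.149). Fasn, the fatty acid synthase, rose from 843, 774 and 1180.1 to 2023 and 2358.

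Thrsp, a regulator of lipogenesis also abundant in fat, was below the floor on all P4 TG arrays, at 34.9, 43.3 and 45.2, and stood at 1381 and 1407 at P60, a rise of at least 4.67 (adjusted p = 7.96e-07). Me1, the malic enzyme that supplies NADPH for lipid synthesis, rose by 2.46 ± 0.32 (SE, adjusted p = 8.05e-05). The number of risen members was 4 without the first P60 array, and 5 without the second, without the third P4 array, with scan day as a random block or with station as a block. Of 17 tested genes of cholesterol synthesis 2 fell, Mvd and Mvk of the mevalonate pathway, 0 rose and the median was -0.19, or 0.13 without the third P4 array. Their calls were lost without the first P60 array (adjusted p = 0.0987 for Mvd and 0.107 for Mvk). For Mvk this was also so without the second P60 array (0.119) or the third P4 array (0.0593), and 0 members were called lower with scan day as a random block or station as a block. The summed cholesterol index was 6316, 7059.5 and 11285 at P4 and 6932 and 8087 at P60 in TG nerve, against 21666, 20358 and 21508 and 16715, 17667 and 15725 in WT nerve. At both ages every TG sum lay below every WT sum.

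Of 18 tested ion channels and transporters 5 rose and 0 fell, with a median of 0.48 in TG and 0.51 in WT. Atp1b3, a subunit of the sodium pump, had indices of 5121, 4956 and 4299 at P4 and 8792 and 10776 at P60. Slc12a2, the sodium-potassium-chloride cotransporter, rose from 2780.2, 2778 and 1984 to 4633 and 5619.7. Kcnab1, a subunit of potassium channels, was below the floor on all P4 arrays and stood at 196 and 142 at P60, a rise of at least 1.61 (adjusted p = 0.0021), while a dim second probe set had a change of 0.34 (adjusted p = 0.166). Fxyd3, a regulator of the sodium pump, rose by 3.46 ± 0.44 (SE, adjusted p = 5.96e-05). In all 4 genes both P60 values lay above all P4 values, but the ages did not overlap in any of the 1216 called probe sets, nor in 43.2% of all tested ones.

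Genes of the circadian clock rose: 7 of 13 tested members were called higher and 0 lower, with a median of 0.98, and 4 of them rose in WT, where the median was 0.33. Nr1d2, a nuclear receptor that represses clock genes, had indices of 131, 137 and 8.29 at P4 and 896 and 627 at P60. Bhlhe40, another repressor of the clock, stood at 184, 195 and 144 at P4 and 934 and 608 at P60. Both genes were higher on the first P60 array than on the second, and on both far above the P4 arrays. Per1 was below the floor on all P4 arrays, at 7.90, 49.4 and 18.4, and reached 236 and 215 at P60, a rise of at least 2.04 (adjusted p = 0.00335). Per2 rose likewise from below the floor, to 190.2 and 75.8. Dbp, a clock-driven activator chosen after its values were seen, went from 102, 75.5 and 201 to 1181 and 759.5 and was not called without the first P60 array (adjusted p = 0.136) or the second (0.0593). The count was 4 without either P60 array. With only the TG arrays fitted 2 members were called higher, and no alternative gave more than 6. Tef, a further risen member chosen after its values were seen, was at the edge of the threshold (adjusted p = 0.0499). Its call was lost without any 1 of the 3 P4 TG arrays (adjusted p from 0.0552 to 0.168). The E-box CACGTG, to which the Clock and Arntl proteins bind, was sought on either strand. It was found in 3 of 9 promoters of 5 of the 7 risen genes, and these 3 belong to only 2 genes, Tef among them. It was also found in 1 of 7 promoters of the other 6 tested genes, and in 7.15% of all 32851 promoters. The hour of collection is not given in the labels, and its part in these values was not tested.

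Genes of antigen presentation and interferon response rose, with 13 of 35 members called higher and 0 lower and a median of 0.53, and all 13 were among the 24 that rose in WT nerve, where the median was 0.95. H2-K1 (93120_f_at), a class I molecule, had indices of 765, 705 and 756 at P4 and 2442 and 1776 at P60. Tap2, which carries peptides to class I molecules, rose from below the floor to 118 and 101, and Gbp2, an interferon-induced GTPase, to 131 and 161. Tapbp, which links class I molecules to that transporter, rose by 1.89 ± 0.26 (SE, adjusted p = 0.000136). A second probe set of H2-K1 and of Tapbp also rose, and the remaining one had an uncalled change of -0.06 for H2-K1 and -0.31 for Tapbp. Without the first P60 array 7 members were called, and 8 with scan day as a random block. Of 31 macrophage genes 1 rose (Itgb2, adjusted p = 0.0498), and that call was lost without any 1 TG array, while 4 members were called without the second P60 array. The summed macrophage index was 11683, 11080.4 and 11931 at P4 and 15426 and 9119 at P60. Of 23 T and B lymphocyte genes 0 were called by limma, and 2 had an unadjusted p under 0.05.

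Of 63 tested genes of collagens and the extracellular matrix 15 fell and 2 rose, with a median of -0.32, and in WT nerve 14 fell and 8 rose, with a median of -0.19. Fbn2, the fibrillin of developing tissue, went from 371, 295 and 297 at P4 to below the floor on both P60 arrays, a fall of at least 2.55 (adjusted p = 1.22e-05). Mfap2, a protein of microfibrils, fell from 561, 551 and 681 to 231 and 178. Col1a1, the main chain of collagen I, fell from 6135, 5779.9 and 6159 to 3777 and 3262, a change of -0.78. Timp3, an inhibitor of matrix proteases, rose by 0.87 ± 0.16 (SE, adjusted p = 0.00214), and without the second P60 array its adjusted p was 0.0502. Without any 1 TG array 1 member was called higher. The count of fallen members was 4 without the second P60 array, 6 without the first or the second P4 array, 9 without the first P60 array, 4 with scan day as a random block and 7 with station as a block. Mfap2, Fbn2 and Col1a1 kept their calls without any 1 of these arrays.

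Of 27 genes of fibroblasts, epineurium and perineurium 4 rose and 2 fell, and the summed index was 13786, 12812 and 15208 at P4 and 30299 and 16074 at P60. The 2 that fell were Dlk1, described above, and Sfrp1, with a change of -1.69 (adjusted p = 0.00136). Without any 1 TG array the change of Dlk1 stayed between -3.05 and -2.76 and that of Sfrp1 between -1.86 and -1.51. Apod, a lipocalin of endoneurial fibroblasts, stood at 348, 258 and 550.4 and then 4057 and 1725, and Gsn, an actin-severing protein, at 328, 295 and 376 and then 3144 and 1348. None of the 4 rises was called without the first P60 array, with adjusted p of 0.051 for Apod and 0.112 for Gsn, and 2 were called with scan day as a random block or station as a block. Of 22 endothelial genes 4 rose, among them Cldn5, the claudin of the blood-nerve barrier, from 139, 125 and 185 to 542 and 1086, and Vwf, from 161, 134 and 308 to 936 and 809.9; 2 were called without the first P60 array or the first P4 array, with scan day as a random block or with station as a block, and a second probe set of Vwf had a change of 0.04 (adjusted p = 0.94). Of 29 genes of adult fast muscle 0 were called on their brightest probe sets in TG and 10 rose in WT, and 0 of the 29 had an unadjusted p under 0.05 in TG. Their summed index was 8071, 21601 and 14443 at P4 and 22405 and 11501 at P60. Single probe sets of Myh4 (98488_at) and Pvalb (96720_f_at), proteins of fast fibres, were called, with P60 indices of 1848 and 848 and of 1575 and 395, and these calls were lost without the first P60 array (adjusted p = 0.199 and 0.0875). Myh4 was also lost without the second P60 array (0.0678) or the first P4 array (0.0819). The probe sets of both that were brightest over all arrays had changes of -0.57 (adjusted p = 0.445) for Myh4 and 0.65 (adjusted p = 0.256) for Pvalb. The part of muscle and epineurial tissue in the pools was not tested.

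Genes of fat cells rose, 8 of 22 members against 1 that fell, and all 8 also rose in WT. Adipoq (99104_at), the hormone adiponectin, had indices of 152, 225 and 248 at P4 and 2737 and 1695 at P60. Lipe, the hormone-sensitive lipase, went from 58.8, 55.3 and 53.9 to 224 and 275. The member that fell was Mest. Without the first P60 array, or with scan day as a random block, 5 members were called higher. Aldh1a1, a retinaldehyde dehydrogenase, was below the floor on all P4 arrays and stood at 1418 and 1141 at P60, and Cyp2e1, a cytochrome P450 of liver and fat, rose from 192, 180.4 and 154 to 5647 and 3186. Mup5, a major urinary protein gene with near-identical copies and so uncertain, had indices of 2844 and 995 at P60 and was not called without the first of these arrays (adjusted p = 0.115). Summed over the list, fat cell genes stood at 7436, 9121 and 7653 at P4 and 20232 and 17436 at P60. Of 26 genes of red blood cells 2 fell, Hbb-b2 and Hba-a1, with changes of -2.72 and -2.77, and Hba-a1 was not called without the first P60 array (adjusted p = 0.0525). Globin genes have close copies that may share signal.

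Of 43 chaperone, proteasome and lysosome genes 5 rose and 0 fell, where 7.35% of all tested probe sets rose and 3.71% fell. Hspa1a and Hspa1b, near-identical inducible Hsp70 genes that may share signal, had P60 indices of 461 and 443 and of 1494 and 1210.5 after 97.5, 83.5 and 80.6 and 477, 487 and 276 at P4. Sqstm1 (p62), the receptor of selective autophagy, rose from 538, 575 and 562 to 1168 and 1242. Of 26 genes of endoplasmic reticulum stress 6 rose and 1 fell, among them Ddit4, from 1291, 975 and 1159.6 to 3988 and 3797, and Herpud1, from 159, 179 and 209 to 512 and 409, and 5 of the 6 rose in WT as well. The 1 that fell was the chaperone calreticulin, Calr, by 1.13 ± 0.28 (SE, adjusted p = 0.0144), and its call was lost without the first P60 array (adjusted p = 0.137) or the second (0.0547). The chaperone count was 3 without the first or the third P4 array or either P60 array, and with scan day or station as a block. The count of risen stress genes was 2 without the third P4 or the first P60 array, and 3 without the first P4 or the second P60 array. It was 2 with fluidics station as a fixed block and 3 with scan day as a random block.

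The remaining lists held few called genes. Their counts stand beside shares of 7.35% risen and 3.71% fallen over all tested probe sets, and are not read as results about these lists. Of 10 mast cell genes 2 rose, Kit and Hdc, and 0 were called without the first P60 array. Of 16 smooth muscle and pericyte genes 2 rose, Myh11, the smooth muscle myosin (0.97), and Mylk, its kinase, and 1 was called without the first P60 array. Of 29 neuron and axon genes 1 rose, Mapt, and 1 fell, Kif1a; without either P60 array both counts were 0, the fall was lost without any 1 P4 array, and the rise without the second or the third P4 array. Of 44 genes of mitochondrial respiration 2 rose, Sdha and Idh3a, with 0 called without either P60 array and 1 without any 1 P4 array. Of 43 genes of growth factor signalling 4 rose and 2 fell. Among them were Frzb, a secreted Wnt antagonist, from below the floor to 172 and 87.1, and Igfbp2, which binds insulin-like growth factors, from 215, 193 and 233 to 96.6 and 131. Neither was called without the first P60 array (adjusted p = 0.277 for Frzb and 0.144 for Igfbp2). Without the first P60 array 1 of these genes was called higher and 0 lower, without the second 1 was called lower, and without the first or second P4 array 2 were called higher. With scan day as a random block or station as a block 0 were called higher and 1 lower, and with quantile normalization or median scaling 5 were called lower. With scan day as a random block 1 mast cell, 1 smooth muscle and 1 mitochondrial gene rose and 0 neuronal genes fell, and with station as a block 0 mast cell genes rose and 0 neuronal genes fell. Of 21 embryonic and slow muscle genes limma called 0, and 1 had an unadjusted p under 0.05.

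The TG and WT changes share no arrays. Of the 808 probe sets that rose in TG nerve 420 also rose in WT nerve, 52.0% of the TG list and 36.4% of the 1155 of the WT list. Of the 408 that fell 166 also fell in WT, 40.7% of the TG list and 34.4% of the 483 of the WT list. A probe set risen in one and fallen in the other was found 4 times in each direction. Across all tested probe sets Pearson's r between the 2 changes was 0.637, which is given as a description, since probe sets are not independent. The difference between the changes, tested as an interaction, passed the threshold for 144 probe sets, 1.31% of those tested, with 69 changes higher and 75 lower in TG. Of the 69, 39 had risen in TG and were not called in WT, and 22 had fallen in WT and were not called in TG. Of the 75, 47 had risen in WT and were not called in TG, and 15 had fallen in TG and were not called in WT. The count of 144 was 50 without the second P60 TG array, 81 without the third P4 WT array, 84 without the first P4 WT array, 91 without the second P60 WT array and 81 with scan day as a random block.

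**Figure D4:**
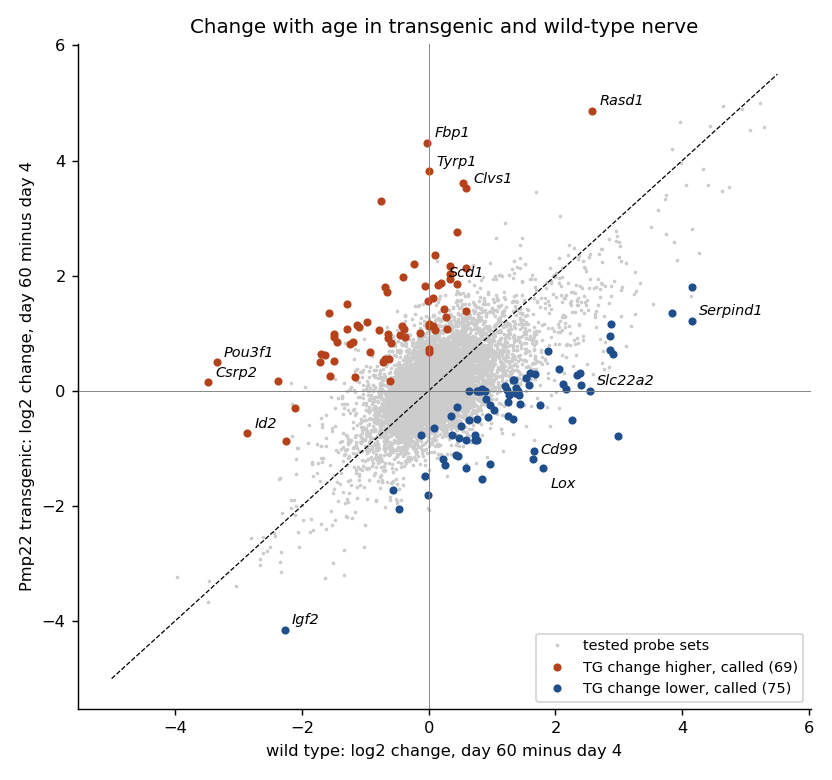
Log2 change from P4 to P60 in WT nerve (horizontal) and TG nerve (vertical) for each of the 10994 tested probe sets, with the 144 whose changes differed in colour and the dashed line where both are equal. Fbp1 and Tyrp1 lie near 0 in WT, where nearly all their values were at the floor, and at 4.31 and 3.81 in TG, and Pou3f1 and Csrp2 at -3.35 and -3.48 in WT and at 0.49 and 0.15 in TG.

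Of the 23 tested Schwann cell regulators Pou3f1, Id2 and Mycn had a change that was higher in TG than in WT. Pou3f1 (102652_at) fell in WT nerve, with indices of 575, 635 and 1116 at P4 and 21.8, 129 and 37.6 at P60, and was not called in TG nerve, with 1406, 1146 and 998 and 1263 and 2153. The difference of the changes was 3.84 ± 0.57 (SE, adjusted p = 0.00137). Id2 (93013_at) fell in both, from 1765, 1599 and 2178 to 239, 240.1 and 278 in WT and from 2886, 3008 and 2198 to 1749 and 1462 in TG, and the changes differed by 2.12 ± 0.21 (SE, adjusted p = 3.87e-05). Mycn, a growth-promoting factor related to Myc, had changes of -1.50 in WT and 0.93 in TG, with a difference of 2.43 ± 0.52 (SE, adjusted p = 0.0291). Mycn was chosen after its values were seen, and its difference was not called without the second P60 TG array (adjusted p = 0.204), without the first or the third P4 WT array (0.0783 and 0.0793) or without the first or second P60 WT array (0.063 and 0.0722). For Egr2 the difference of 1.03 ± 0.27 (SE, adjusted p = 0.0713) did not pass the threshold. Csrp2 (93550_at), a LIM-domain protein, stood at 3506, 2452 and 3169 and then 247, 209 and 384 in WT, and at 2493, 2135 and 2693 and then 2246 and 3212 in TG. The P60 TG values of Pou3f1, Id2 and Csrp2 all lay above all P60 WT values.

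Several genes rose more with age in TG than in WT nerve. Fbp1 (96918_at), fructose-1,6-bisphosphatase of gluconeogenesis, had indices of 90.2, 48.4 and 68.5 at P4 and 1094 and 1741 at P60 in TG, and its highest value on any WT array was 57.0. With 5 of the 6 WT values at the floor, the difference of the changes came to 4.33 ± 0.30 (SE, adjusted p = 4.13e-07), and the WT change itself is not measured. Tyrp1 (97954_at), an enzyme of melanin synthesis, was below the floor on all P4 TG and all 6 WT arrays and stood at 765 and 774 on the P60 TG arrays, so its rise in TG was at least 3.81 (adjusted p = 1.14e-05). Its change in WT lay below the floor and is not measured, so no size is given for the difference here. A second probe set of Tyrp1 had a change of 0.33 in TG (adjusted p = 0.33). Sowaha, an ankyrin repeat protein, went from 85.6, 82.5 and 64.6 to 930.4 and 953 in TG and from 105, 57.7 and 107 to 127, 172 and 91.2 in WT. Clvs1, a lipid-transfer protein, went from 64.8, 94.2 and 97.9 to 1269 and 739 in TG and from 204, 214 and 308 to 451, 243 and 425 in WT. Rasd1, a Ras-like protein induced by dexamethasone, rose from below the floor in both, to 1414 and 1802 in TG and 506, 397 and 175 in WT. All its P4 values lay below the floor, so the size of the difference between the changes is not measured, and the P60 values of the 2 genotypes did not overlap. With values at the floor, the difference was 2.11 without the second P60 TG array and was not called.

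Of the lipid genes Scd1 and Ugt8a differed. The indices of Scd1 in WT were 4711, 4971 and 4555 at P4 and 5699.9, 4394 and 6452 at P60, so its P4 TG values lay below and its P60 TG values within or above the WT range, and the changes differed by 1.68 ± 0.20 (SE, adjusted p = 0.000205). Ugt8a, which makes the myelin lipid galactosylceramide, stood at 583, 469 and 367 and then 227, 166 and 222 in WT, and at 112, 168 and 108 and then 228 and 227 in TG, with a difference of 2.04 ± 0.45 (SE, adjusted p = 0.0347). The values of Ugt8a at P60 lay between 166 and 228 in both genotypes, and those at P4 did not overlap. The difference of Ugt8a was not called without 9 of the 11 TG and WT arrays, all but the second P4 TG and the third P4 WT array (adjusted p from 0.0506 to 0.167). Igf2 fell in both, to 1177, 969.8 and 2598 in WT, and its changes differed by -1.88 ± 0.39 (SE, adjusted p = 0.0201). That call was lost without the second P60 TG array (adjusted p = 0.145), the first P4 TG array (0.0502) or the first or the third P4 WT array (0.0552 and 0.0504).

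Other genes rose in WT nerve and had a lower change in TG nerve, and values of some of them in TR nerve are given below. Lox (160095_at), which cross-links collagen and elastin, rose in WT from 552, 712 and 753 to 2446, 2358 and 2215, while in TG it went from 720.4, 631 and 553 to 445 and 139.6. The difference was -3.15 ± 0.54 (SE, adjusted p = 0.00481), and another probe set of Lox gave -2.72. Serpind1, heparin cofactor II, rose in both, to 1528, 2160.1 and 1429 in WT and 147 and 133 in TG, with a difference of -2.93 ± 0.36 (SE, adjusted p = 0.000226). Cd99, a surface protein used by leukocytes in crossing vessel walls, went from 423, 407 and 422 to 967, 1243 and 1849 in WT and from 813, 655 and 957 to 391 and 315 in TG, where its change of -1.19 did not pass the threshold (adjusted p = 0.0506). Slc22a2, an organic cation transporter, was below the floor on all TG arrays and stood at 312, 397 and 261 on the P60 WT arrays, so its change in TG is not measured. The rise of Serpind1 in TG was not called without the first P60 array (adjusted p = 0.0697), and its difference from WT was called without any 1 array and not called with the floor at the 10th percentile (adjusted p = 0.0549). Without the second P60 TG array Lox and Cd99 missed the threshold (adjusted p = 0.0542 and 0.0689). Pou3f1, Csrp2, Sowaha, Clvs1 and, with values at the floor as given above, Fbp1, Tyrp1 and Slc22a2 were called in all 22 alternatives, which include leaving out each TG and WT array.

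**Figure D5:**
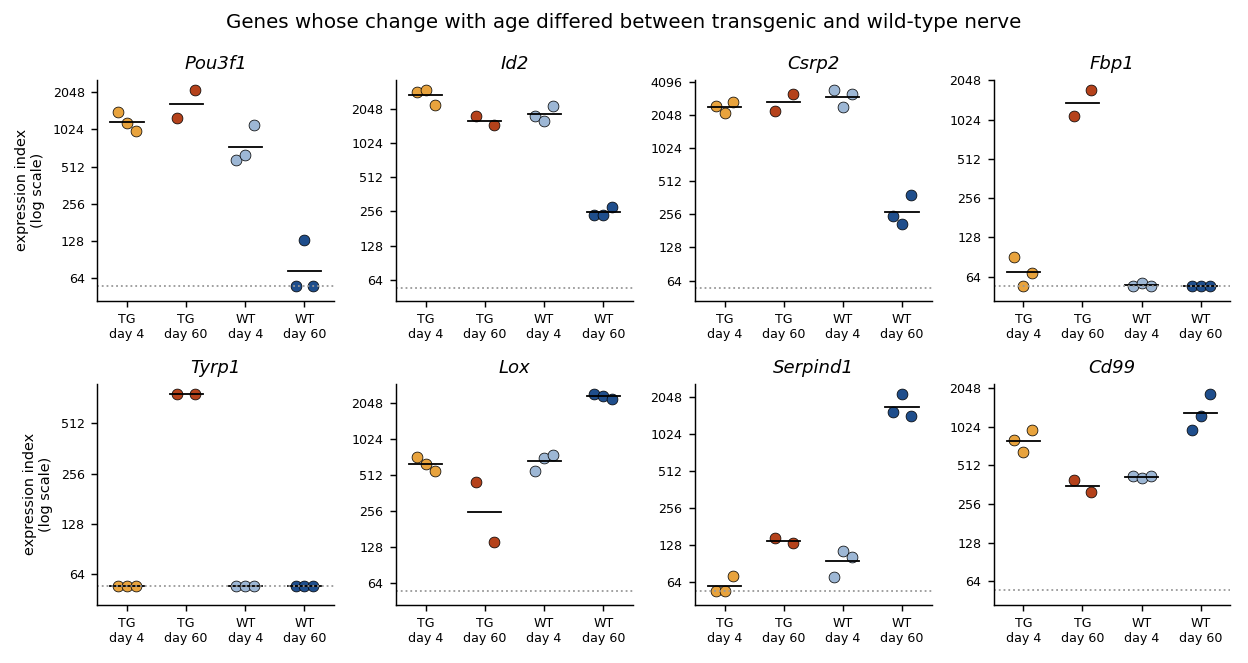
Expression index of 8 genes whose change with age differed between TG and WT nerve, by array, on a log scale, drawn as in the plot of genes that changed with age. Pou3f1, Id2 and Csrp2 were higher at P60 in TG than in WT, Fbp1 and Tyrp1 rose from near the floor in TG, and Lox, Serpind1 and Cd99 ended lower in TG.

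The other Pmp22 genotypes were compared in the same way. The change with age differed between TG and KO nerve for 915 probe sets, 8.32% of those tested, with 721 higher and 194 lower in TG. That split depended on the scaling and was 621 to 363 after quantile normalization and 610 to 338 after median scaling. The second P60 KO array weighed heavily, and 128 were called without it, while 1824 were called without the first. The count was 537 and 294 without the first and the second P4 KO array, 544 without the third P4 TG array, and 353 and 265 without the first and the second P60 TG array. Gsdme, a pore-forming gasdermin, Stk39, a kinase that regulates cation-chloride cotransporters, and Cct3, a chaperonin subunit, had the highest differences, of 4.10, 3.67 and 3.66; their KO changes were -3.12, -2.59 and -3.45, against TG changes of 0.98, 1.08 and 0.21. The difference of Cct3 is a lower bound, since both P60 KO arrays lay below the floor on this probe set, and other probe sets of Cct3 gave 2.59 and 0.25. Thy1, a surface glycoprotein of neurons, T cells and fibroblasts, had the lowest difference, of -3.28. Socs3, an inhibitor of cytokine signalling, and Zfp91, a zinc finger protein, followed with -3.22 and -3.00. Thy1 was not called without the second P60 TG array or the second P60 KO array, with scan day as a random block (adjusted p = 0.076) or with station as a block (adjusted p = 0.0595). The named probe set of Socs3 was dim, with TG means of 72.0 at P4 and 88.3 at P60. A brighter one had a TG change of -0.14 (adjusted p = 0.761), against 0.25 on the named one. Another probe set of Zfp91 had a TG change of 0.37 (adjusted p = 0.31), against -0.87 on the named one. Between TG and TR nerve 132 differed, 1.20%, and this count ranged from 15 without the second P60 TG array to 345 without the third P4 TR array. It was 71 and 83 without the first and the second P4 TG array, and 76 and 64 without the first and the second P4 TR array.

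Fbp1 had a change of -0.24 in TR nerve and 1.25 in KO nerve, and its TG change was higher than that in TR by 4.55 ± 0.31 (SE, adjusted p = 5.52e-07), with both P60 TR arrays below the floor. Tyrobp, an adaptor of myeloid receptors, and Ccl2, a chemokine that attracts monocytes, had changes of -1.04 and -1.27 in TG, 2.17 and 1.60 in TR and 1.17 and 0.97 in WT. The TG minus TR differences were -3.20 (adjusted p = 0.0312) for Tyrobp and -2.87 (adjusted p = 0.0142) for Ccl2. Without the second P60 TG array the adjusted p was 0.201 for Tyrobp and 0.116 for Ccl2, and without the first P60 TR array 0.0816 for Tyrobp and 0.0603 for Ccl2. Tyrobp was also not called without the third P4 TG array (0.0609) or the first or second P4 TR array (0.0652 and 0.082). Pou3f1 had mean indices of 966 at P4 and 835 at P60 in KO and of 939.5 and 1172 in TR, against 775 and 62.9 in WT. Lox, Csrp2, Id2 and Scd1, which differed from WT, had TG minus TR differences of -0.14, 0.63, -0.10 and 0.41. None of these was called by limma (adjusted p from 0.407 to 0.96), while Sowaha and Rasd1 were (0.0146 and 0.00885). Serpind1 had mean P60 indices of 140 in TG and 131 in TR, and Slc22a2 was below the floor on all TR arrays. Xist was also called as differing between TG and TR, while its P60 TG values were 144 and 1476.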

How the data were processed

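Sciatic nerve RNA was hybridised to Affymetrix MG_U74Av2 arrays, 1 pool of mice per array, after 2 rounds of in vitro transcription, per the labels' protocols. The deposited values are expression indices on a linear intensity scale, which the authors computed in dChip after smoothing-spline normalization, per the labels' protocols. Probe sensitivities were modelled over 27 arrays (18 for the first P60 WT array), per the labels; arrays beyond the 21 are not analysed here. Some indices are below 0.

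Values were raised to the 20th percentile of all values (54.7), taken to log2 and fitted with limma 3.58.1 in R 4.3.3 as 8 group means over all 21 arrays, with eBayes and a trend. Tests covered the 10994 probe sets that exceeded the floor on 2 or more arrays, with Benjamini-Hochberg adjustment at 0.05, and 1428 dim ones were left out. Differences between genotypes were contrasts in the same fit. Each pool is 1 replicate, and p-values rest on the spread between pools, which may be partly technical. Of 12422 probe sets 10833 had 1 gene symbol, 396 several and 1193 none; only the first were named. Some genes of the preset set are not reported here.

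The 26 gene lists hold 942 genes, of which 715 were measured, each on its brightest probe set. Genes named were Pmp22, the 12 highest and 12 lowest changes with non-overlapping arrays, up to 4 called members per list by adjusted p, the 6 highest and 6 lowest differences from WT, the 3 highest and 3 lowest from KO and TR, and a preset set of nerve genes. The members and lists were chosen with earlier results of these data known.

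On simulated data with 10994 probe sets in this comparison, the fit called 52.2% of changes of 1, 68.7% of 2 and 89.4% of 3 on the log2 scale, with 3 false calls. The simulated noise was independent between arrays, with no effect of scan day or station. In the data the consensus correlation within scan day was 0.396. The 3 false calls therefore do not give the rate of false calls in the real comparison. Promoter sequences came from RefSeq. Alternatives covered the floor, the filter, 2 scalings, the groups fitted, a replicate block, scan day, fluidics station, the eBayes trend and each array left out.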

Additional observations from a re-analysis of the deposited data

Results flagged for a closer look

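The results listed here drew attention because limma's test of the difference between 2 changes with age passed the threshold and the gene was among the highest or lowest of its comparison. Values are the TG change minus the other genotype's change on the log2 scale. Against WT the change was higher in TG by 2.93 for Clvs1 (adjusted p = 0.00222), 3.62 for Csrp2 (adjusted p = 0.000256), 4.33 for Fbp1 (adjusted p = 4.13e-07), 3.84 for Pou3f1 (adjusted p = 0.00137), 3.07 for Sowaha (adjusted p = 0.000614) and 3.81 for Tyrp1 (adjusted p = 0.00119). It was lower in TG, with differences of -2.83 for Cd99 (adjusted p = 0.00616), -2.48 for Cpxm2 (adjusted p = 0.0361), -3.15 for Lox (adjusted p = 0.00481), -2.37 for Matn4 (adjusted p = 0.0361), -2.93 for Serpind1 (adjusted p = 0.000226) and -2.54 for Slc22a2 (adjusted p = 4.13e-07). Values below the floor enter these differences at the floor. Tyrp1 lay below it on every P4 TG and every WT array and Slc22a2 on every TG and P4 WT array, so their differences are not measured sizes, nor bounds. Fbp1 lay below it on 5 of 6 WT arrays, Pou3f1 on 2 of 3 P60 WT arrays, Serpind1 on 2 of 3 P4 TG arrays and Cpxm2 on 2 of 3 P4 WT arrays and 1 of 3 P4 TG arrays. Cpxm2 lost its call in 13 of 22 alternatives and Matn4 in 12 of 22; without the second P60 TG array the adjusted p of Cpxm2 was 0.319, and without the first that of Matn4 was 0.138.

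Against KO the change was higher in TG by 3.66 for Cct3 (adjusted p = 0.00167), 4.10 for Gsdme (adjusted p = 0.000511) and 3.67 for Stk39 (adjusted p = 0.000714). It was lower in TG, with differences of -3.22 for Socs3 (adjusted p = 0.000154), -3.28 for Thy1 (adjusted p = 0.0129) and -3.00 for Zfp91 (adjusted p = 0.00521). Thy1 was not called without the second P60 TG array (adjusted p = 0.0586) or the second P60 KO array (0.0542), with scan day as a random block (0.076) or with station as a block (0.0595). Cct3 lay below the floor on both P60 KO arrays and Stk39 on 1, so these differences are not exact either. Against TR the change was higher in TG by 4.55 for Fbp1 (adjusted p = 5.52e-07), 3.86 for Sncg (adjusted p = 0.038) and 4.54 for Xist (adjusted p = 0.0458). It was lower in TG, with differences of -2.87 for Ccl2 (adjusted p = 0.0142), -2.80 for Hbb-b2 (adjusted p = 0.0447) and -3.20 for Tyrobp (adjusted p = 0.0312). Among these, Hbb-b2 lost its call in 12 of 21 alternatives, Sncg in 10 of 21, Tyrobp in 8 of 21, Xist in 13 of 21 and Ccl2 in 3 of 21, with the second P60 TG array among those whose omission ended each call. Fbp1 was called in all 21. Fbp1 and Xist lay below the floor on both P60 TR arrays and Sncg on 1, so these differences are not exact. Serpind1, compared with WT, was not called with the floor at the 10th percentile (adjusted p = 0.0549).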

How the results depend on the processing

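The count of 1216 probe sets that changed with age in TG nerve was 615 when only the TG arrays were fitted, 642 with scan day as a random block, 740 with fluidics station as a fixed block, added after seeing the data, and 565 to 1031 when 1 TG array was left out. The 144 differences from WT became 81 with scan day as a random block and 50 to 181 with 1 array left out. The 915 differences from KO became 576 with only the groups compared, 190 with scan day and 128 to 1824 with 1 array left out. The 132 differences from TR became 78 without the filter on dim probe sets, 27 with only the groups compared, 46 with scan day and 15 to 345 with 1 array left out. The causes of these shifts were not tested. Fits that leave arrays out also rest on fewer arrays. Whether replicate numbers pair the arrays is not known. Same-numbered TG arrays had deviations from their group means that correlated at -0.133 and -0.197 between the ages. With only 2 P60 TG arrays their deviations mirror each other, so these values cannot decide it. With a replicate block the counts were 1324 for TG with age, 140 for WT, 234 for TR. Quantile normalization split the age-related calls 796 higher to 602 lower and median scaling 770 to 559. Of 96 named probe sets called with age, 31 lost the call without the first P60 TG array, 23 without the second, 22 with scan day, 20 with station and 41 with only the TG arrays fitted, and 0 changed sign under these 5 alternatives. Both P60 TG arrays were scanned on a day of their own.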
